A study of Picea abies with 19 samples.

Results

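The 100 spruce probes described here were chosen by their measured signal on 10 arrays of genotypes 20, 35 and 52. Signal above background was required on all 4 arrays from 5-month roots, and the signal was not above background on at least 1 of the 6 arrays from 18-month roots and was lower at 18 months by the largest mean difference. Of 32144 spruce probes on the array, 6439 were above background on all 4 of the 5-month arrays, 203 of these met the detection clause, and the 100 with the largest difference were kept. A spot counted as above background when its raw median exceeded the median of its local background by more than 2 background standard deviations. The working name of the set, probes lost after 5 months, did not hold up in the data. None of the 100 was below background on all 6 of the 18-month arrays, and 148 of the 171 readings that were not above background came from 3 arrays scanned on 1 day.

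Gene expression was measured in the root ends of Norway spruce (Picea abies) clones raised as cuttings, on 19 spotted oligonucleotide arrays, 1 array per sample, in a single colour (Alexa 647). At 18 months after adventitious roots had begun to form there were 2 arrays each from genotypes 52, 61, 70 and 76, titled Slow, and 2 each from genotypes 18, 20 and 35 and 1 from genotype 15, titled Fast. At 5 months there were 2 arrays from genotype 52 (Slow) and 1 each from genotypes 20 and 35 (Fast). No treatment is named, each genotype is 1 clone, and each sample pools several root ends, so a change in the mixture of root tissues and a change within cells cannot be told apart. The columns of the 18-month genotype 76 replicate 1 file name another laser channel than its file name does, while those of the other 18 files name none. The labels call the samples biological samples but do not say whether they came from separate plants, so the p-values measure only the spread between these samples.

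An adventitious root arises from stem tissue and not from the seedling root. Its end holds a cap, a dividing meristem and elongating cells, and behind them the tissues that take up water and nutrients. As a root end matures its cells stop dividing, their walls thicken and conducting tissue forms, and in conifers such as spruce the short roots are commonly colonised by mycorrhizal fungi. The files pair the probes with no gene names and hold no probe sequences, so the functions of the 100 members, the root tissue markers and pathway lists are not reported, and the members are called by their probe identifiers.

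The labels of the arrays disagree between the scanner files and the deposited table of the whole series. Across probes, 11 of the 19 scanner files matched a table column named for another sample (Pearson correlation 0.855 to 0.939), and the best correlation of the other 8 files was at most 0.546. None of the 19 files had its highest correlation with the column of its own name. A match to the column of another sample was found for 7 of the 10 arrays that chose the members. The rest of the 10 matched no column. They were the 5-month arrays of genotype 20, genotype 35 and genotype 52 replicate 1, with correlations of -0.327, -0.009 and -0.146 with their own columns. For 2 of those 7 the matching column bore the other age, namely 18-month genotype 20 replicate 2 and 5-month genotype 52 replicate 2. No sample was moved, and all values below stand under the labels of the scanner files. Which of the sources has the right names was not tested.

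Levels are given as log2 net intensity floored at 50, less the median of the array over the 2613 probes above background on all 19 arrays, so that 0 marks that median. On this scale the mean difference over the 3 genotypes, 18 minus 5 months, lay between -5.60 and -1.04 in the members, with a median of -1.55. Over the 16012 probes above background on at least 4 arrays, here called the filtered probes, the median was 0.16. These differences chose the members and carry no test. The rule itself ranks by 5 minus 18 months, and at its limit Spruce_22003 and Spruce_19372 were kept at 1.05 and 1.04, while Spruce_23380 and Spruce_13414 were left out at 1.03 and 1.02.

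**Figure D1:**
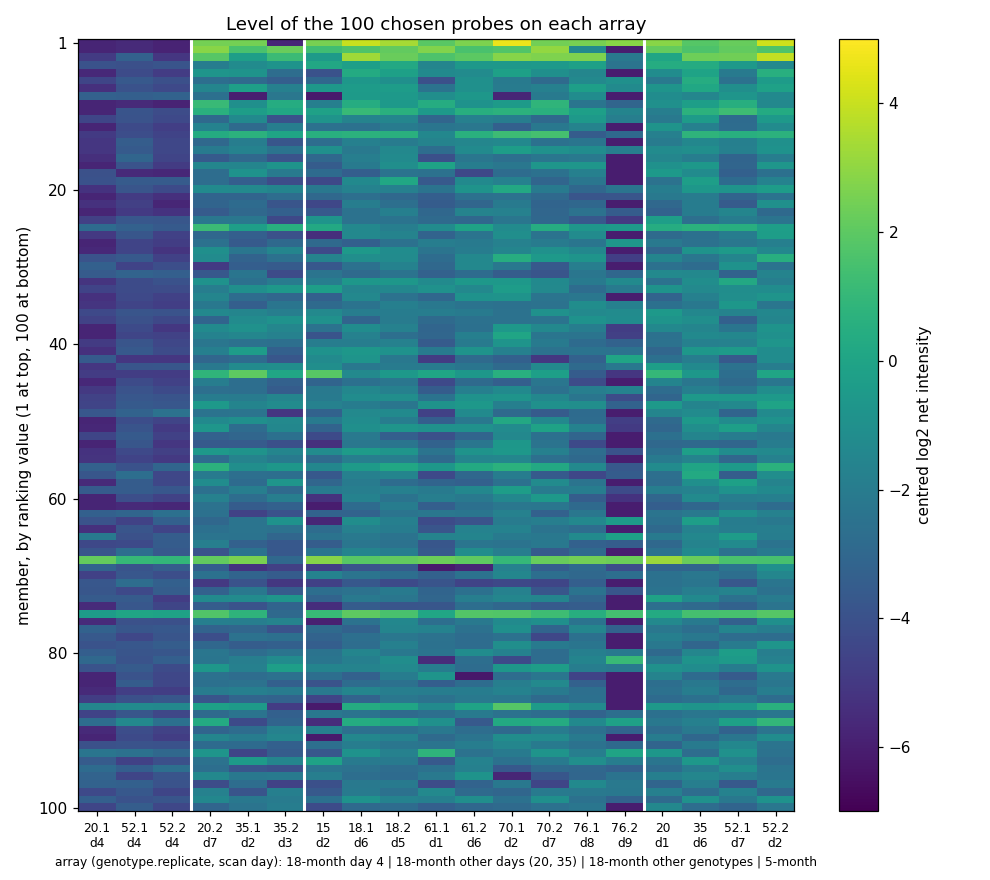
Centred log2 net intensity (colour) of the 100 members (rows, by ranking value) on the 19 arrays (columns, genotype and replicate with the scan day under it). The 3 arrays of scan day 4 at the left are dark over most rows, and genotype 76 replicate 2, scanned on day 9, is dark over many.

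The low readings were gathered on the 3 arrays scanned on day 4, which are 18-month genotype 20 replicate 1 and both 18-month arrays of genotype 52. No other array was scanned that day. The member median was -4.64 on the genotype 20 array and -3.89 and -4.36 on the genotype 52 arrays. On the other 3 18-month arrays of genotypes 20 and 35 it lay between -2.55 and -2.22, and on the 9 18-month arrays of the 5 genotypes the rule did not use between -3.82 and -1.72. It lay between -2.15 and -1.47 on the 5-month arrays. The day 4 arrays thus lay below all 16 others in member median, the other 3 arrays of genotypes 20 and 35 lay just under the 5-month ones, and the 9 unused arrays overlapped them.

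**Figure D2:**
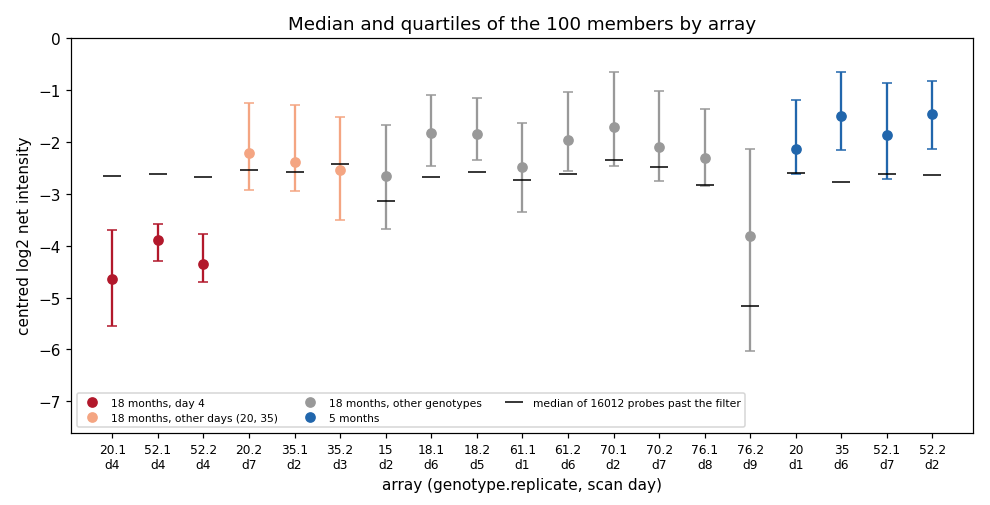
Median (points) and quartiles (bars) of the 100 members on each array, in centred log2 net intensity, with the median of the 16012 filtered probes as a dash. The day 4 points lie between -4.64 and -3.89, below all other points, whereas the dashes of those arrays lie between -2.69 and -2.63.

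Counts of readings above background followed the same arrays. On the day 4 arrays 76 members in genotype 20 and 25 and 51 in genotype 52 were above background, against 91 to 94 on the other 3 18-month arrays of genotypes 20 and 35, and by the rule all 100 on each 5-month array. Of the 100 members, 80 were missed on day 4 arrays alone, another 7 on day 4 and other arrays, and 13 on no day 4 array. The rule asked for at least 1 missed array, and no share over the 203 probes that met the detection clause is given. The 103 of these not chosen had medians of -2.76 (genotype 20), -3.42 and -3.08 (genotype 52) on the day 4 arrays. On the other 3 18-month arrays of genotypes 20 and 35 their medians were -2.36 to -2.08. Over all spruce probes the share above background was not low on the day 4 arrays, at 35.8 to 57.5 percent, against 38.8 to 51.2 percent on the other 3 18-month arrays of genotypes 20 and 35 and 27.5 to 34.9 percent on the 5-month arrays. The median local background was 96.0 to 270.0 intensity units on the day 4 arrays, 147.0 to 308.0 on those other 3 and 421.0 to 490.0 on the 5-month arrays. In both measures the day 4 arrays overlapped the other 3.

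Genotype 20 holds 1 array of day 4 and 1 of another day at 18 months. The day 4 array was lower than the other in 91 of 100 members (median difference -2.46). Over the filtered probes the median was 0.01, with 49.7 percent lower. Both arrays took part in the choice of members, so this contrast is a description. The other 18-month array differed from the 5-month array of genotype 20 by a median of -0.18, with 57 members lower. No share over the filtered probes is given for that count. In genotype 52 both 18-month arrays were scanned on day 4, so age, scan day and the state of that genotype at 18 months cannot be told apart. Day 4 also has no 5-month array, and what set its arrays apart was not tested.

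By genotype, the 18 minus 5 months difference had a member median of -2.40 in genotype 52, with 99 members below 0, against 0.06 and 47.9 percent below 0 over the filtered probes. It was -1.26 in genotype 20, with 95 below 0, against 0.09 and 46.2 percent, and -0.89 in genotype 35, with 87 below 0, against 0.26 and 37.8 percent. Genotype 35 has no day 4 array, and there 75 members were lower on both 18-month arrays than on its 5-month array. Its arrays took part in the choice of members, and no share over the filtered probes is given for this count. In the growth classes this sets the slow genotype 52 beside the fast genotypes 20 and 35, and its larger difference goes together with its 2 arrays of day 4. Whether the 3 genotypes differ was not tested, since these values chose the members.

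Without the day 4 arrays, over genotypes 20 and 35, the member median of the difference was -0.54 and 75 members were below 0. Over the filtered probes it was 0.18, with 37.8 percent below 0, and over the probes above background on all 5-month arrays 0.01, with 49.4 percent below 0. The arrays in this difference also took part in the choice of members. The 9 unused 18-month arrays less the mean of the 5-month arrays gave a median of -0.65, with 94 members below 0. Over the filtered probes that median was -0.18, with 63.7 percent below 0, and over the probes above background on all 5-month arrays it was -0.33, with 73.3 percent below 0. The probes above background on all 5-month arrays share with the members that each had to be bright at 5 months. The 9 arrays come from other genotypes than the 5-month arrays, so age and genotype cannot be told apart in this difference.

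**Figure D3:**
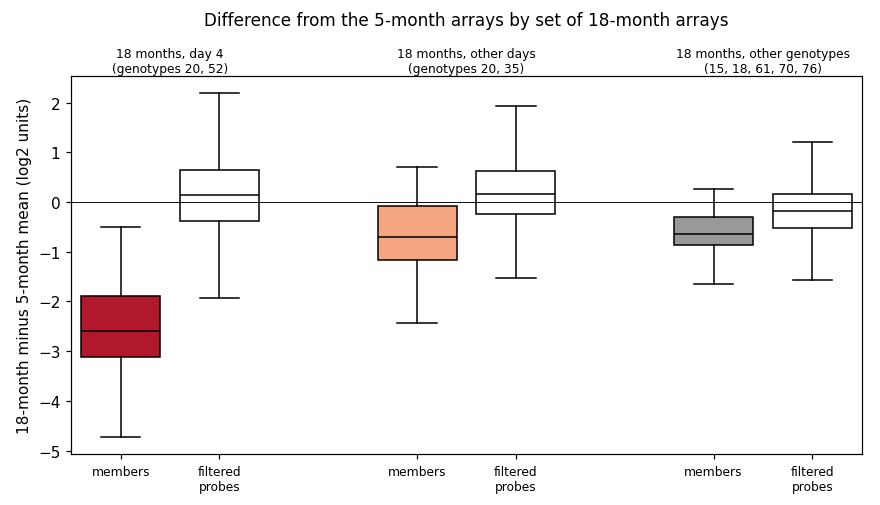
Boxes (median and quartiles, whiskers to 1.5 times the box) of the 18-month minus 5-month mean in log2 units for the 100 members (filled) and the 16012 filtered probes (open), with the 18-month arrays in 3 sets. The member median is -2.59 for the day 4 arrays, -0.71 for the other arrays of genotypes 20 and 35 and -0.65 for the other genotypes.

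Few members separated the ages array by array. In 11 members all 6 18-month arrays of the rule lay below all 4 5-month arrays, as they did in 0.831 percent of the filtered probes. The 3 day 4 arrays did so in 90 members (7.47 percent of the filtered probes), and the other 3 in 12 members (2.32 percent). The 9 unused arrays did so in no member (0.0749 percent). In 30 members the 3 day 4 arrays lay below all other 16 arrays, as in 223 of the filtered probes (1.39 percent). The rule used the day 4 arrays, so that share is a description.

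Spruce_18434 had the largest difference. It was at the floor and not above background on 4 arrays, at -5.75 in genotype 20 replicate 1, -5.58 and -5.82 in genotype 52 and -5.66 in genotype 35 replicate 2, all at 18 months. The remaining 18-month arrays of genotypes 20 and 35 read 2.50 and 2.48, and the 9 unused 18-month arrays read from 1.93 to 4.64 with a median of 2.61. The 5-month arrays read 2.88 in genotype 20, 1.83 in genotype 35, and 2.23 and 4.13 in genotype 52. This probe was therefore either at the floor or as bright as at 5 months, with no reading in between.

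Spruce_31939 was at the floor on the 3 day 4 arrays, at -5.75, -5.58 and -5.82. The other 18-month arrays of genotypes 20 and 35 read 2.88, 1.57 and 2.25, and the unused arrays read from -6.04 to 3.04 with a median of 1.70. At 5 months it read 2.15, 1.64, 2.10 and 1.68, one of the 3 narrowest 5-month ranges among the members. Genotype 76 replicate 1 (-1.26) and replicate 2 (-6.04) were its only unused readings under 1.

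Spruce_12521 was above background on all 9 unused arrays, where it read from -2.15 to 3.30. On day 4 it read -4.91 in genotype 20 and -3.27 and -5.09 in genotype 52, against 1.90, -0.27 and 1.20 on the other arrays of genotypes 20 and 35. Its 5-month values of 0.07, 2.33, 2.41 and 3.91 had the widest range of any member, 3.84 log2 units. Spruce_27855 and Spruce_31080 followed with ranges of 3.72 and 3.64, and Spruce_30108 and Spruce_27579 had the narrowest of all, 0.26 and 0.49.

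Spruce_07739 read -3.98 on day 4 in genotype 20 and -4.06 and -3.89 in genotype 52, and -1.92, -1.21 and -0.81 on the other 18-month arrays of genotypes 20 and 35. Its unused arrays spanned -2.38 to 0.25, and its 5-month arrays -1.36 to 0.41. It was among the 18 members above background on all 9 unused arrays, of which it, Spruce_18434 and Spruce_12521 had the highest ranking values. The sets overlapped except for the day 4 arrays.

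The other 8 of the 12 members with the highest ranking values were Spruce_16093, Spruce_30226, Spruce_19511, Spruce_18953, Spruce_22540, Spruce_31625, Spruce_19031 and Spruce_16504, at 2.53 to 2.02. Spruce_22540 and Spruce_31625 differed by 0.70 and 0.03 between the other 18-month arrays of genotypes 20 and 35 and all 5-month arrays, which include genotype 52. Within genotype 35, which has no day 4 array, they differed by -0.04 and -0.78. In the first of these comparisons Spruce_30226 differed by -1.82 and Spruce_18953 by -2.43. The value for Spruce_18953 rests on genotype 35 replicate 1, where it was at the floor of -6.0, since the other 2 of these arrays read -2.56 and -2.24.

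**Figure D4:**
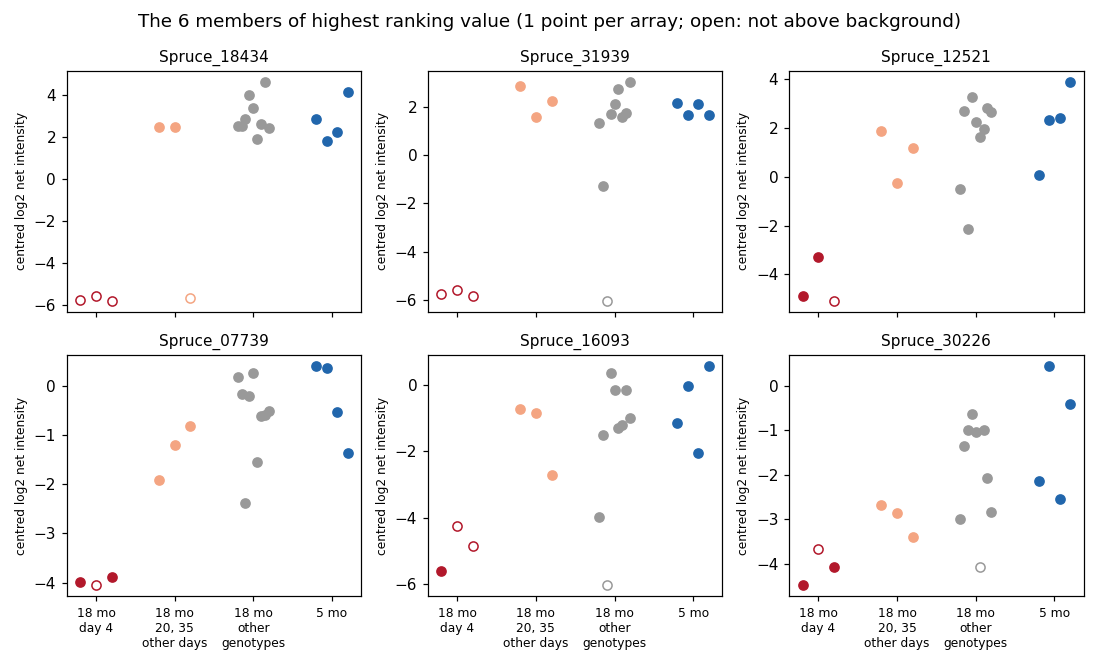
Centred log2 net intensity of the 6 members with the highest ranking values, 1 point per array, with open points for readings not above background. In each panel the 18-month day 4 points lie below every 5-month point, and in Spruce_18434 a single 18-month array of another day joins them at -5.66.

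In genotype 52, 37 members were not above background on either 18-month array, so that only a bound can be given. Each bound sets the 5-month mean, after background correction and quantile normalisation, against the higher, on each 18-month array, of the dimmest signal above background there and the probe's own signal. By this the bound for Spruce_18434 was 126-fold lower on the 18-month arrays, both scanned on day 4, than at 5 months. These values also chose the members. The dimmest signal is that of any spruce probe above background and not the limit of the spot itself, so the bounds are approximate. The bound was 52.4-fold for Spruce_31939, and the median over the 37 was 3.70-fold. For 15 of the 37 the probe's own signal was the higher on both arrays. Another 50 members were above background on 1 of the 2 arrays and 13 on both.

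On the 9 arrays the rule did not use, 51 members were above background on 8 or 9 arrays and 18 on all 9. No share over other probes is given for these counts. Per array 36 to 98 members were above background, against 15.4 to 48.0 percent of all spruce probes. Members had to be above background on every 5-month array, so these counts are a description. The fewest, 3 of 9, were found for Spruce_14612 and Spruce_21181, followed by 3 members tied at 4 of 9, of which Spruce_16252 had the highest ranking value. The 5-month readings of the 3 named probes lay between -3.75 and -2.29. Genotype 76 replicate 2 stood apart, with 36 members above background against 68 to 98 on the other 8, and with 15.4 percent of all spruce probes above background.

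Genotypes were compared on those 9 arrays with limma's moderated F-test. With a threshold of 0.05 on the Benjamini-Hochberg adjusted p, none of the 100 members and none of 16012 probes passed (0 percent). At an unadjusted p under 0.05 there were 15 members, against 1149 probes in all (7.18 percent). The lowest adjusted p among the members was 0.322, for Spruce_31080, whose normalised log2 level was 13.62 in genotype 15 (1 array), and, as mean ± SD of 2 arrays, 8.80 ± 0.27 in genotype 76, 11.62 ± 0.51 in genotype 70, 11.31 ± 0.45 in genotype 61 and 10.67 ± 0.49 in genotype 18. Next came Spruce_31939, which was low in genotype 76 alone (8.99 ± 2.13, against means of 13.11 to 13.82), with an adjusted p of 0.421 by the same limma test. Spruce_12575 and Spruce_30644 followed, with means of 11.03 and 11.17 in genotype 76, while both were not above background on the array of genotype 15.

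This count rested on genotype 76 replicate 1. Without that array members and other probes alike passed the same limma test. That fit leaves the dim replicate 2 alone for its genotype, with its spread assumed to be that of the others. Its counts therefore stand only as the upper ends of the leave-out ranges in the last section, and nothing is concluded from them. Without genotype 76 altogether no member and 48 probes passed.

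The class comparison set genotypes 61, 70 and 76 (slow) against 15 and 18 (fast), with 1 mean per genotype. None of the members and none of the 16012 probes (0 percent) passed in limma. At an unadjusted p under 0.05 there were no members and 190 probes (1.19 percent). The median slow minus fast difference was -0.17 in the members and -0.05 over all probes tested. Leaving out 1 array moved the member median between -0.33 (without genotype 15, the only array of that genotype) and -0.04 (without genotype 76 replicate 2). The lowest p among the members were those of Spruce_31128, Spruce_07739 and Spruce_12356. Spruce_31128 averaged 9.85 ± 0.43 in slow genotypes and 10.94 ± 0.11 in fast ones (normalised log2, SD, n = 3 and 2 genotypes, limma's adjusted p = 1.0).

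Scan period 2 (days 5 to 7) was compared with period 1 (days 1 to 4) within genotypes 61 and 70, the only unused genotypes with an array in each. Neither the members nor any of the 16012 probes passed (0 percent) in limma, and at an unadjusted p under 0.05 there were no members and 226 probes (1.41 percent). The members had a median difference of 0.13, and all probes 0.07. In genotype 70 alone the member median turned to -0.23. Spruce_30695 and Spruce_05147 had the lowest p, with differences of 1.42 ± 0.65 and -1.28 ± 0.72 (SE, limma's adjusted p = 1.0 for both). None of these arrays was scanned on day 4, so this comparison does not speak to that day.

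To read age on arrays that had no part in the choice, the rule was applied to 2 of the 3 genotypes and the 100 probes found were read in the genotype left out. The list from genotypes 35 and 52 shared 60 probes with the members. In genotype 20 it had a median of -4.90 on the 18-month day 4 array, -2.35 on the other 18-month array and -2.87 on the 5-month array. In median level the day 4 array was the low one, in a genotype the list had not used. The day 4 arrays of genotype 52 had helped to choose that list. The other 18-month array stood above the 5-month one. By counts above background the 5-month array was the lowest, with 62 of the 100 probes. The day 4 array had 75 and the other 18-month array 90. The fitted median of 18 minus 5 months was -0.22 on the normalised log2 scale, with 67 of 100 below 0, against 0.07 over all probes. It was 0.48 without the day 4 array and -1.13 without the other 18-month array.

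The list from genotypes 20 and 52 shared 75 probes with the members. In genotype 35, which has no day 4 array, its median was -2.22 and -2.20 on the 18-month arrays and -1.80 on the 5-month array. Of its 100 probes, 96 and 98 were above background on the 18-month arrays and 87 on the 5-month array. The fitted median difference was -0.66, with 72 of 100 below 0, against -0.01 over all probes, and it was -0.11 with scan period in the model. The list from genotypes 20 and 35 shared 32 probes with the members. In genotype 52 its median was -3.72 and -4.10 at 18 months and -3.77 and -2.48 at 5 months, so the ages overlapped. Above background were 47 and 59 of its probes at 18 months and 48 and 56 at 5 months. The fitted median was -0.61 with 69 below 0, against 0.02 over all probes.

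No probe passed the adjusted threshold in any of these 3 fits (limma, 0 percent of 16012 in each). At an unadjusted p under 0.05 there were 2 list probes in genotype 20, against 335 probes in all (2.09 percent), and 4 in genotype 35, against 561 (3.5 percent). In genotype 52 there were 18, against 1483 (9.26 percent). The lowest p belonged to Spruce_07739, Spruce_12169 and Spruce_19793 in genotype 20, and Spruce_07739 differed there by -2.88 ± 0.73 (SE, limma's adjusted p = 1.0). In genotype 35 they belonged to Spruce_30226 (-3.52 ± 0.95), Spruce_23906 and Spruce_12209, the last of which was higher at 18 months (1.95 ± 0.83, limma's adjusted p = 1.0 for all 3). In genotype 52 Spruce_31939 differed by -6.41 ± 1.60 and Spruce_18434 by -8.21 ± 2.13, with limma's adjusted p of 0.306 and 0.349. Both were not above background on either 18-month array there, so these fitted values are not measured sizes and the bounds given above apply. The same limit holds for Spruce_03361, which is no member, at -3.11 ± 0.84 (adjusted p = 0.349 by limma).

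The rule did not use position, and the members were unevenly spread over the array. Of its 48 blocks of spots, 7 held 6 or more members each and together 58 of the 100. They carry 14.6 percent of the spruce probes and 40.4 percent of the 203 probes that met the detection clause. Another 20 blocks held none. The blocks were picked after their counts were seen, so this is a description. Probes above background on all 19 arrays, which could not have been members, had a median day 4 difference from the other 16 arrays of -0.30 in those 7 blocks (362 probes) and of 0.09 elsewhere (2251 probes). By block it ran from -0.51 (block 47) to 0.0 (block 17) among the 7, and was -0.09 in block 22, which held the most members. Elsewhere it ran from -0.5 in block 45 (3 members) to 0.57 in block 8 (no member).

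**Figure D5:**
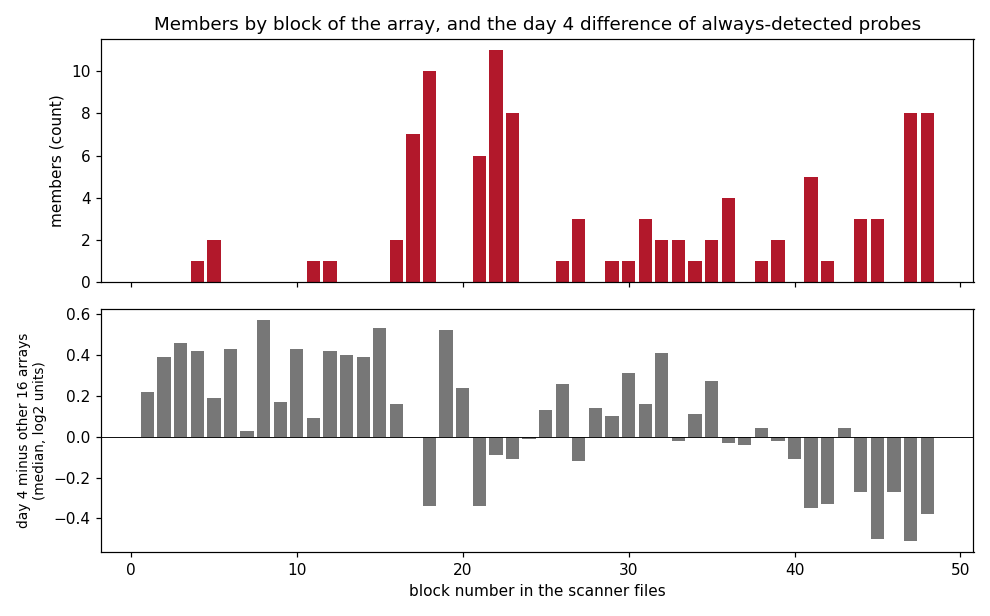
Number of members in each of the 48 blocks (top) and, for probes above background on all 19 arrays, the median of the day 4 arrays less the other 16 in log2 units (bottom). Members are most numerous in blocks 18 and 22, and the bottom panel ranges from -0.51 to 0.57.

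The members' own day 4 difference, which the rule used, had a median of -2.20 in the 7 blocks and of -2.10 in the 42 members elsewhere. Their local background was 0.99 to 1.04 times the array median, and 3 pairs of members lay on neighbouring spots. What part position has in the choice of members was not tested. Across all 19 arrays pairs of members had a mean correlation of 0.48, and across the 16 arrays not of day 4 of 0.25, against 0.11 and 0.12 for pairs of filtered probes; arrays share scan day and depth of signal, and these are descriptions.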

How the data were processed

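Per the file headers, the deposited scanner files hold the intensity of each of 34992 spots and of its local background, not normalised; 2848 are controls. The authors' deposited table of the series holds log2 values. How they were scaled or centred is not stated here by any source, and the table served as an alternative only. Scan days and 3 scan periods were read from the files.

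The members and lists were chosen with earlier results of these data known. Net intensity was floored at 50 and centred as described above. For the fits, limma 3.58.1 under R 4.3.3 applied normexp with an offset of 50 over all spots, then quantile normalisation of spruce probes over 19 arrays. Probes above background on at least 4 arrays were kept (16012, with 16132 left out), and all 100 members passed. All tests except the F-test were two-sided, and p-values were adjusted by Benjamini-Hochberg over all kept probes. The F-test used 9 arrays. The held-out age contrasts used 1 spread estimated from all 19 arrays. Tables and figures were made with Python 3.11.15, pandas 2.3.3 and matplotlib 3.10.9. The number of arrays limits the precision.

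Named probes were the 12 of highest ranking value, those beside the limit of the list, those of lowest p in each test (4 for genotype, 3 for class, 2 for scan period, 3 for each held-out genotype), the 3 above background on most and on fewest unused arrays (ties taken by ranking value), and the 3 with the widest and narrowest 5-month range.

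On simulated arrays with 16012 probes, 100 of them changed by 2 and 100 by 4 log2 units, the genotype test recovered 0 and 0, the class test 25 and 91, the scan test 0 and 39, and the age tests 2 and 60 in genotype 20, 7 and 65 in genotype 35 and 16 and 80 in genotype 52. Of the unchanged probes the genotype and scan tests called 0, the class test 5, and the age tests 6, 4 and 7 in the same order. The simulated arrays held no differences between genotypes other than the changes put in. The class test compares genotype means, so its counts may overstate its power. In the genotype test the change was put in a single genotype. For such changes the genotype test on 9 arrays had little power.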

Additional observations from a re-analysis of the deposited data

Results flagged for a closer look

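Values that stood far from the others of their group were looked for in the 4 array measures and the 12 members of highest ranking value, in 47 sets of arrays. There were 5 such values, and chance gives about 1 in 20 sets. Of the 5, 4 come from 1 array, so the sets are not independent. Among the 9 18-month arrays of genotypes 15, 18, 61, 70 and 76, genotype 76 replicate 2 had 36 members above background, the next lowest array 68. Its member median was -3.82, the next -2.65. On that array Spruce_31939 read -6.04 (next -1.26) and Spruce_16504 read -6.04 (next -3.30). Over all filtered probes the median on that array was -5.16 and 66.9 percent of the spruce probes were under the floor, so the low values were not particular to the members. Replicate 1 of the same genotype, scanned in the same period, had 98 members above background and a member median of -2.31. Among the 6 18-month arrays of genotypes 20, 35 and 52, Spruce_18953 read -6.0 in genotype 35 replicate 1, the next value being -3.37.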

How the results depend on the processing

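The list of 100 shared 41 probes with the list made with 3 background standard deviations, 60 and 32 with those made without genotype 20 and without genotype 52, and 17 with that made without the 3 day 4 arrays, a choice made after seeing the data. Asking that a probe be above background on none of the 6 arrays left no probe. Leaving out 1 array kept 69 to 91. The member median of 18 minus 5 months, -1.55, was -1.88 with centring on all spruce probes, -0.54 in the deposited table, -0.54 without day 4 and -0.59 with the 9 other arrays against the mean of 3 genotypes. Leaving out 1 array gave -1.96 to -1.13. These alternatives for the median were chosen after seeing the data too.

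In the genotype test 4 of the 100 members and 19 of the 16012 probes passed in the deposited table, 48 probes without genotype 76 and 75 with all 15 arrays. The deposited table was read under its own column names, which disagree with those of the scanner files. Its values in this section therefore differ in labels as well as in processing. In the next ranges both upper ends come from the fit without genotype 76 replicate 1. That fit leaves replicate 2 alone for its genotype, so nothing is concluded from those upper ends. Leaving out 1 array gave 0 to 15 members and 0 to 2865 probes. For scan period, leaving out 1 array gave 0 to 1 probes, and the member median turned to -0.23 without either array of genotype 61 and was 0.52 without either of genotype 70. For age, genotype 35 gave 1 probe with no filter and 1 in the table, and genotype 52 gave 0 to 1 when 1 array was left out. The held-out median of genotype 20 ran from -1.13 to 0.48. That of genotype 35 was -0.54 on the centred scale, -0.51 in the table and -0.11 with scan period, and -0.53 to -0.50 with 1 array left out. That of genotype 52 was -0.85 on the centred scale, -0.79 in the table and -0.84 to -0.26 with 1 array left out. The causes were not tested. The class median was -0.44 in the table and -0.33 to -0.04 with 1 array left out. No paired analysis was possible because the replicate numbers were given in accession order and pair no samples. The titles of 18-month genotype 52 replicate 2 and 5-month genotype 52 replicate 2 differ only in a closing letter, which ties 1 pair at most.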
